A study of Mus musculus with 4 samples.

Results

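The CCAAT/enhancer-binding proteins (C/EBPs) are basic leucine zipper transcription factors that bind DNA as dimers and direct the formation of granulocytes and monocytes. C/EBPα is needed for the step from myeloid progenitors to the granulocyte line, and C/EBPε for the later step at which secondary granule proteins are made. C/EBPβ and C/EBPδ are induced by cytokines and inflammatory signals, and C/EBPβ sustains granulocyte output when demand is raised (emergency granulopoiesis). C/EBPγ and the stress factor CHOP, encoded by Ddit3, pair with other zipper proteins. Cebpz carries the family name but encodes a nucleolar protein without a leucine zipper. The genes described here were chosen by symbol: Cebpa and Cebpe as the steady-state factors, Cebpb and Cebpd as the emergency factors, and Cebpg, Ddit3 and Cebpz. All 7 were found among the 24706 mouse genes measured, and 5 of them were expressed highly enough to be tested.

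The data were RNA-seq libraries of mouse myeloid cells, 2 labelled wt and 2 labelled cko. The study's cko mice were PD-1f/f; LysM-Cre animals, which carry LoxP sites around an exon of Pdcd1 and express Cre from the Lyz2 locus in granulocytes, monocytes and macrophages. Its wt controls were named PD-1f/f mice in one place and wild-type mice in another, and the alleles of the controls were not resolved. The material was described both as CD11b+ cells sorted from the liver of pups at postnatal day 3 and as RNA of fetal livers at postnatal day 2, and this was not resolved. Nothing stated that the 2 libraries of a group came from separate animals, so that p-values measure the spread between these libraries, which may be technical. The libraries held between 17691504 and 22212404 counted reads. Pdcd1, the targeted gene, had 28.5 and 34.7 FPKM (counted reads scaled by gene length and library size) in wt replicates 1 and 2 and 17.1 and 21.4 FPKM in cko replicates 1 and 2, and its log2 fold change of cko against wt (log2FC) was -0.69 with an SE of 0.19 (limma, adjusted p = 0.218). Transcripts of the 12 neutrophil markers were abundant in every library, with summed levels of 162287 and 138086 FPKM in wt and of 110778 and 92233 FPKM in cko.

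The family differed widely in level, and Cebpe stood above all other members in each library. Per unit of length, Cebpe made up 74.9% and 76.7% of the summed FPKM of the 7 genes in wt replicates 1 and 2, and 75.5% and 53.8% in cko replicates 1 and 2. Over the 4 libraries Cebpe ranged from 40.9 to 101 FPKM and Cebpz from 12.5 to 21.4 FPKM. Ddit3 (3.88 to 5.83 FPKM) and Cebpd (4.07 to 5.74 FPKM) overlapped, with Ddit3 higher in 3 of the 4 libraries. Cebpg followed at 1.85 to 2.55 FPKM. Cebpb (0.479 to 1.43 FPKM) and Cebpa (0.425 to 1.09 FPKM) were lowest and overlapped too, with Cebpb higher in 3 of the 4 libraries. Cebpe above Cebpz, Cebpz above Ddit3, Cebpd above Cebpg and Cebpg above Cebpb held in all 4 libraries with no overlap of the ranges.

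**Figure D1:**
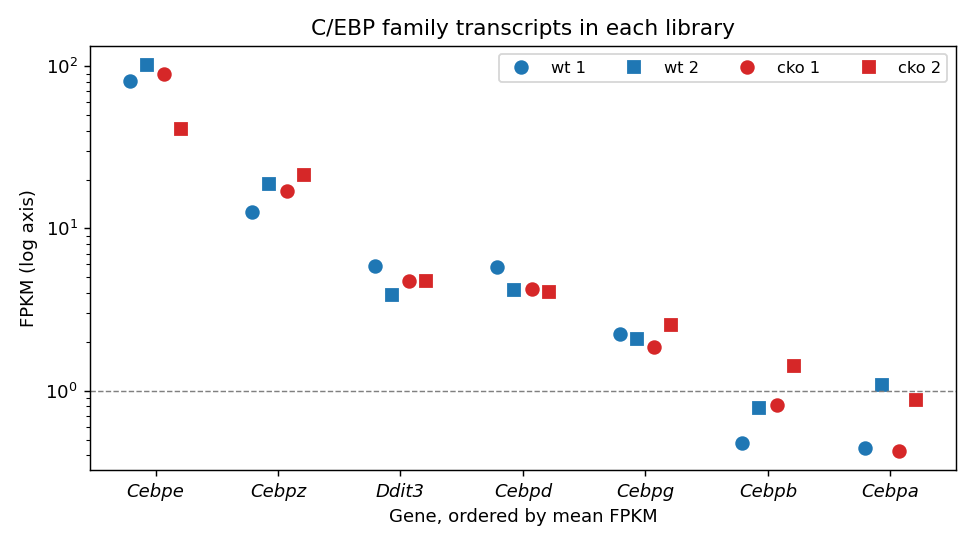
Expression of the 7 family genes in each library, in FPKM on a log axis, with 1 point per library and wt and cko in separate colours. Cebpe lies between 40.9 and 101 FPKM, while Cebpa and Cebpb lie near or below the 1 FPKM used as the filter for testing.

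Groups were compared with limma on log2(FPKM + 1), a scale on which the change of a weakly expressed gene is understated. A gene was called when its log2FC passed 1 in either direction with an unadjusted p under 0.01, and only called genes are said to have risen or fallen. Of the 10779 genes tested, 2.29% were called (1.88% higher in cko and 0.408% lower), and 16.4% had an unadjusted p under 0.05. Among the 5 family genes tested, 0 were called, 0 had an unadjusted p under 0.05, 0 were called by voom on the recovered reads, and 0 had an adjusted p under 0.05. Over all genes, 0.0% were called with an adjusted p under 0.05, so that this stricter rule had no call to set beside the family. The median log2FC of all genes tested was 0.09. With quantile normalization it was -0.02, and with erythroid and hepatocyte genes removed it was 0.27. A family gene that differs by less than these shifts cannot be given a direction.

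Cebpa encodes C/EBPα. It lies on chromosome 7 from 35119293 to 35121928, on the plus strand, as a single exon. Positions are given as deposited, and those of Cebpa, Cebpb, Cebpd, Cebpg and Ddit3 equal the ones of GENCODE M21 (GRCm38), while those of Cebpe and Cebpz differ in part. Its values were 0.444 and 1.09 FPKM in wt replicates 1 and 2, from 26 and 54 reads, and 0.425 and 0.879 FPKM in cko replicates 1 and 2, from 21 and 41 reads. The groups overlapped, and each group held a low and a high library. The reads of replicate 1 of wt corresponded to 1.17 RPM, reads scaled to library size without length (95% Clopper-Pearson interval 0.765 to 1.72) and those of replicate 2 to 2.87 (2.16 to 3.74), so that the wt libraries differed from each other by more than counting error. With a mean of 0.709 FPKM, Cebpa was below the filter and was not tested, and its log2 difference was -0.09 between the group means.

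Cebpe, which encodes C/EBPε, lies on the minus strand of chromosome 14 from 54710363 to 54712174. It ranked 554 by mean level among the protein-coding genes, above 96.5% of them. Cebpe had 81.5 and 101 FPKM in wt replicates 1 and 2, from 2240 and 2359 reads, and 89.7 and 40.9 FPKM in cko replicates 1 and 2, from 2081 and 895 reads. Cko replicate 1 thus lay between the 2 wt libraries, and cko replicate 2 below all others. The groups overlapped, with means of 91.3 ± 13.98 FPKM in wt and 65.3 ± 34.5 FPKM in cko (SD, n = 2 each). The 95% intervals for counting error were 106 to 116 RPM in cko replicate 1 and 47.3 to 54.0 in cko replicate 2, and so did not meet. The log2FC was -0.58 (SE 0.37, 95% interval -1.498 to 0.35, limma adjusted p = 0.466). This value rested on cko replicate 2. It was -0.02 when that library was left out, and -1.13 when cko replicate 1 was left out, with an unadjusted p of 0.00394 and an adjusted p of 0.136, which passed the call rule.

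Cebpb, which encodes C/EBPβ, is a single-exon gene on the plus strand of chromosome 2 from 167688915 to 167690418. It had 0.479 and 0.777 FPKM in wt replicates 1 and 2, from 16 and 22 reads, and 0.816 and 1.43 FPKM in cko replicates 1 and 2, from 23 and 38 reads. Both cko libraries lay above both wt libraries, and Cebpb was the only one of the 7 family genes whose groups did not overlap. Of the 13927 genes below a mean of 1 FPKM, 25.9% had groups that did not overlap, and of the tested genes 51.6% (33.6% higher and 18.0% lower in cko). The gap between wt replicate 2 and cko replicate 1 was within counting error, with 95% intervals of 0.732 to 1.77 and 0.778 to 1.84 RPM. The intervals of wt replicate 1 (0.412 to 1.17) and cko replicate 2 (1.52 to 2.95) did not meet. The log2 difference was 0.37 at a pseudocount of 1, 0.81 at a pseudocount of 0.01 and 0.85 by voom, with an unadjusted p of 0.289.

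The 5′ end of Tmem189 lies across Cebpb on the opposite strand, and 312 of the 1504 exonic bases of Cebpb (20.7%) are shared with it. Whether reads were counted by strand was not given in the sources used here, so that reads in the shared bases could not be assigned to one gene or the other. Tmem189, which was picked after its values were seen, had 2.91 and 5.16 FPKM in wt replicates 1 and 2 and 5.92 and 8.12 FPKM in cko replicates 1 and 2. Its libraries stood in the same order as those of Cebpb. Its log2FC was 0.69 (SE 0.28, limma adjusted p = 0.308), and its part in the values of Cebpb was not tested.

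Cebpd encodes C/EBPδ and lies on the plus strand of chromosome 16 from 15887286 to 15891031. It had 5.74 and 4.198 FPKM in wt replicates 1 and 2, from 478 and 296 reads, and 4.24 and 4.07 FPKM in cko replicates 1 and 2, from 298 and 270 reads. Wt replicate 1 lay above the other 3 libraries, which were within 0.2 FPKM of each other, and the groups overlapped. The log2FC was -0.20 (SE 0.20, 95% interval -0.71 to 0.31, limma adjusted p = 0.650). Of its exonic bases 15.0% are shared with Spidr on the minus strand, which was also picked after its values were seen and had a log2FC of -0.15.

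**Figure D2:**
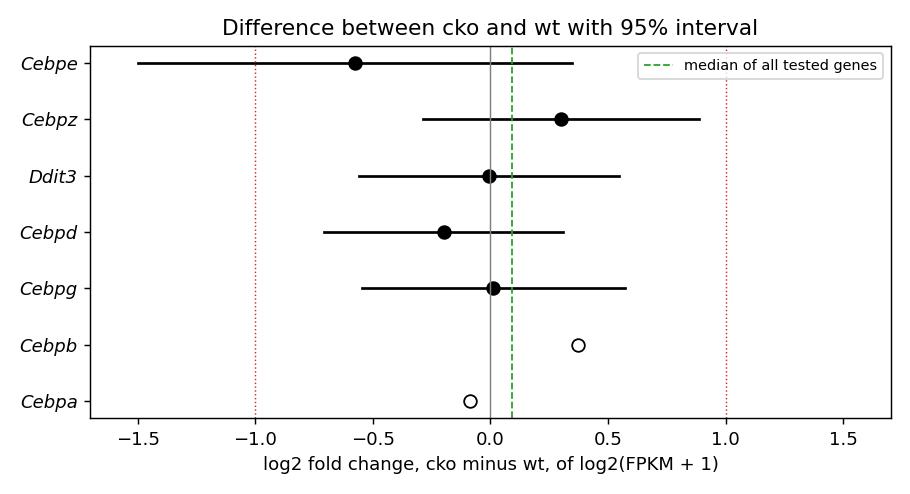
Log2FC of cko against wt for each family gene, with filled points and 95% interval lines for the 5 genes tested and open points for Cebpa and Cebpb. The red dotted lines mark a log2FC of -1 and 1 and the green line the median of all genes, and all 5 intervals include 0.

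Steady-state and emergency factors were also set against each other within each library. The mean log2(FPKM + 1) of Cebpb and Cebpd minus that of Cebpa and Cebpe was -1.79 and -2.27 in wt replicates 1 and 2, and -1.88 and -1.34 in cko replicates 1 and 2. The steady-state pair was thus higher in every library, through Cebpe. The group means were -2.03 ± 0.34 in wt and -1.61 ± 0.38 in cko (SD, n = 2 each), a difference of 0.42 for which no test was made. Leaving out 1 library moved it between 0.15 and 0.69, lowest without cko replicate 2 and highest without cko replicate 1. As a ratio of FPKM, Cebpe was 14.2 and 24.1 times Cebpd in wt replicates 1 and 2, and 21.1 and 10.03 times in cko replicates 1 and 2. The ratio of Cebpb to Cebpa was 1.08 and 0.714 in wt and 1.92 and 1.62 in cko, on the few reads given above.

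Cebpa and Cebpb were, with Cebpe, the most GC-rich members. The GC content of the longest annotated transcript was 67.2% for Cebpb, 62.6% for Cebpa and 61.5% for Cebpe, against 51.6% for Cebpd and 43.3% to 45.6% for Cebpg, Cebpz and Ddit3. Among 15985 protein-coding genes the median level was 1.97 FPKM at a GC content of 50% to 55% and 0.477 FPKM at 60% to 65%. Of the 171 protein-coding genes with at least the GC content of Cebpa, 31.0% reached 1 FPKM, against 57.2% of all protein-coding genes. Cebpe, at 61.5% GC, stood far above the median of its bin. Jund, a zipper gene picked after its values were seen, was measured at 0.351 to 0.644 FPKM. The related zipper genes Junb and Jun were far higher, at 337 to 853 FPKM and at 71.4 to 149 FPKM. The GC content of Jund, Junb and Jun was not compared, so that their levels do not bear on GC content. Whether GC-rich transcripts were under-sampled in these libraries was not tested.

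**Figure D3:**
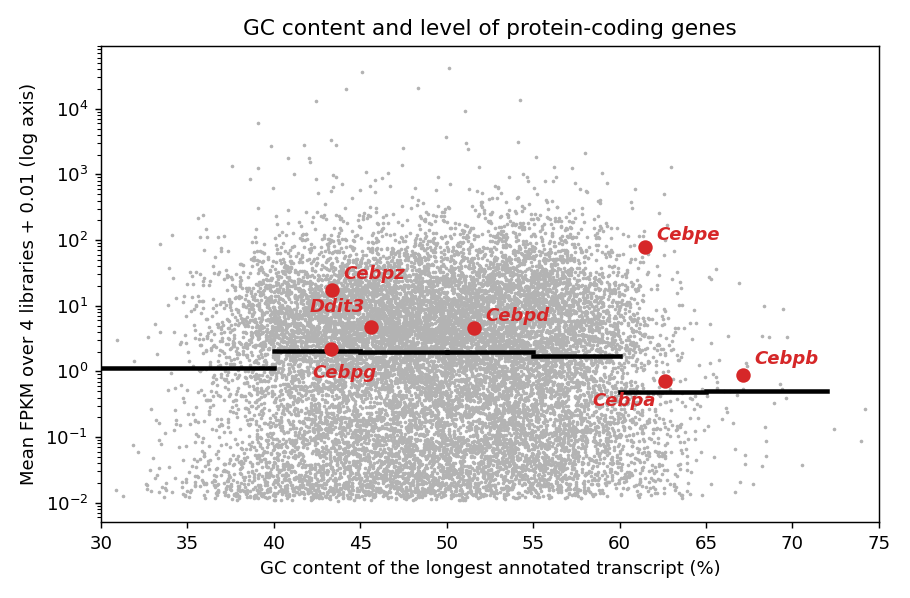
Mean expression over the 4 libraries, in FPKM on a log axis, plus 0.01, against the GC content of the longest annotated transcript in percent, with a grey point for each protein-coding gene, a red point for each family gene and a black line at the median of each GC bin. The median falls from 1.97 FPKM at 50% to 55% GC to 0.477 FPKM at 60% to 65%, and Cebpe lies far above it.

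The composition is visible in the coding sequences. The 100-base window of highest GC content is printed for Cebpa, Cebpb, Cebpd and Cebpe. CpG dinucleotides are in capitals, 5′ to 3′ on the coding strand (GENCODE M21, GRCm38). The windows of Cebpa and Cebpb had the same GC content, and that of Cebpe had the lowest GC content and the fewest CpG. The windows are chr7:35119480-35119579 of Cebpa (85.0% GC, 15 CpG), chr2:167689552-167689651 of Cebpb (85.0%, 22 CpG), chr16:15887820-15887919 of Cebpd (79.0%, 16 CpG) and chr14:54711838-54711937 of Cebpe (68.0%, 5 CpG). Over the whole coding sequence the GC content was 71.9% for Cebpa, 73.4% for Cebpb, 70.4% for Cebpd and 62.4% for Cebpe, so that Cebpd, whose long transcript is 51.6% GC, has a coding part close to those of Cebpa and Cebpb.
Cebpa: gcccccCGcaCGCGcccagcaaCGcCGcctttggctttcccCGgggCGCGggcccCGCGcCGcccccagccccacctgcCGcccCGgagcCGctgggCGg
Cebpb: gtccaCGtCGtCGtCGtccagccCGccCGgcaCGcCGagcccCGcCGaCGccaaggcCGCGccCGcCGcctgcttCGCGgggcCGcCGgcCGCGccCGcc
Cebpd: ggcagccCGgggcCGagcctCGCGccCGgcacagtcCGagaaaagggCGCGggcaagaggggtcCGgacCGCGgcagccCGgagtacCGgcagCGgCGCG
Cebpe: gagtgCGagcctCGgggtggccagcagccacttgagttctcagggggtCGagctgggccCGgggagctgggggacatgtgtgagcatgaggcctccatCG

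The promoters of the lowest steady-state and emergency members are shown because Cebpb is known to be induced through its promoter by cytokines, with Cebpa for comparison. They are the 250 bases before the gene start in RefSeq (GRCm38.p6), chr7:35119043-35119292 for Cebpa and chr2:167688665-167688914 for Cebpb, both on the plus strand. RefSeq sequences were matched for Cebpa, Cebpb, Cebpg and Ddit3, and those of Cebpd, Cebpe and Cebpz are named only. Capitals mark matches on either strand to CCAAT as well as to TGACG as well as to TATAAA.
Cebpa: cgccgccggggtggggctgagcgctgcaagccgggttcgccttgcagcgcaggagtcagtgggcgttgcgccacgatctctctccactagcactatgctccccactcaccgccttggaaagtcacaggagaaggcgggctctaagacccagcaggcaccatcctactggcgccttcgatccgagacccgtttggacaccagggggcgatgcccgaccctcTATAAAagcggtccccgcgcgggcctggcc
Cebpb: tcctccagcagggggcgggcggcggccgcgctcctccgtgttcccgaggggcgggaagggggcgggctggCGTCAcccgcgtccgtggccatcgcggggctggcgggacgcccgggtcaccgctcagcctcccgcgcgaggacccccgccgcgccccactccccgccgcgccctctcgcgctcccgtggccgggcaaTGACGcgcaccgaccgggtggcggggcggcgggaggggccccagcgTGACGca

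Both strands were searched for 7 motifs, each of which is a description of letters and not of binding. The Cebpb promoter held 3 matches to TGACG, the half-site of cyclic AMP response elements, which 17.8% of 32851 promoters of this length held, and 5 matches to the GC box GGGCGG (held by 32.7%). The Cebpa promoter held 1 match to TATAAA (held by 12.4%). The promoters of Cebpg and Ddit3 held 2 and 1 matches to CCAAT (held by 33.8%). None of the 4 promoters held TTGCNNAA, the C/EBP core letters (held by 9.56%), the NF-κB motif (3.90%) or TTCCNGGAA of the STAT type (0.913%).

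Cebpg, on the minus strand of chromosome 7 from 35046422 to 35056573, encodes C/EBPγ, a dimer partner of ATF4 that lacks an activation domain. It had 2.23 and 2.09 FPKM in wt replicates 1 and 2, from 278 and 221 reads, and 1.85 and 2.55 FPKM in cko replicates 1 and 2, from 195 and 254 reads, and the cko libraries bracketed the wt ones. The log2FC was 0.01 (SE 0.22, 95% interval -0.55 to 0.57, limma adjusted p = 0.984), and its sign turned to -0.07 with median-of-ratios scaling and to -0.13 with quantile normalization.

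Ddit3 encodes CHOP, a factor made late in the integrated stress response. It lies on the plus strand of chromosome 10 from 127290774 to 127296288 and had 5.83 and 3.88 FPKM in wt replicates 1 and 2, from 222 and 125 reads, and 4.77 and 4.72 FPKM in cko replicates 1 and 2, from 153 and 143 reads. Both cko libraries lay between the wt libraries. The log2FC was -0.01 (SE 0.22, 95% interval -0.56 to 0.55, limma adjusted p = 0.990) and turned to 0.17 with erythroid and hepatocyte genes removed. Mars, a tRNA synthetase gene that overlaps the end of Ddit3 on the minus strand, had a log2FC of 0.29 (SE 0.20, adjusted p = 0.484).

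Cebpz lies on the minus strand of chromosome 17 from 78919006 to 78937070. It had 12.5 and 18.7 FPKM in wt replicates 1 and 2, from 1135 and 1437 reads, and 17.1 and 21.4 FPKM in cko replicates 1 and 2, from 1303 and 1542 reads, and the groups overlapped. The log2FC was 0.30 (SE 0.24, 95% interval -0.29 to 0.89, limma adjusted p = 0.547). Ndufaf7, a mitochondrial assembly factor gene that starts next to Cebpz on the other strand, had 15.5 and 16.4 FPKM in wt and 17.0 and 20.9 FPKM in cko, with a log2FC of 0.23 (SE 0.17, adjusted p = 0.517). Of 25 tested genes for nucleolar proteins of ribosome assembly, among them factors of the small subunit such as Noc4l, 0 were called and 3 were higher at an unadjusted p under 0.05, where 11.4% of all genes were. Rrs1 and Noc4l had the highest log2FC values (0.98 and 0.77) and Rpf2 and Ebna1bp2 the lowest (-0.35 and -0.18).

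Genes that act on C/EBP factors were described next, from a list of signalling receptors, transcription factors and degradation factors. Of 35 tested, 1 was called, higher, where 1.88% of all genes were called higher. The median log2FC was 0.30 beside 0.09 for all genes. At an unadjusted p under 0.05, 11 were higher and 2 lower, shares of 31.4% and 5.71% beside 11.4% and 4.95% of all genes, and without wt replicate 1 the 11 became 4. Nfil3, a zipper repressor gene, rose from 31.8 and 42.1 FPKM in wt to 79.7 and 86.6 FPKM in cko, a log2FC of 1.16 (SE 0.18, limma adjusted p = 0.183). Ets2, an ETS-family factor gene, had 17.3 and 18.0 FPKM in wt and 28.0 and 60.5 FPKM in cko, with a log2FC of 1.18 that missed the call rule (unadjusted p = 0.0173).

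The receptors and signalling genes that lie above Cebpb and Cebpd in the granulocyte colony-stimulating factor and interleukin-6 pathways were higher in both cko libraries. Csf3r, the receptor gene for granulocyte colony-stimulating factor, had 81.5 and 80.3 FPKM in wt and 104 and 140 FPKM in cko (log2FC 0.57, SE 0.18). Il6ra had 11.4 and 13.1 FPKM in wt and 19.1 and 19.9 FPKM in cko (0.64, SE 0.16). Stat3, the factor activated by both receptors, had 51.7 and 47.8 FPKM in wt and 84.1 and 86.0 FPKM in cko (0.76, SE 0.14). None of these 3 was called, and their adjusted p-values were 0.251, 0.214 and 0.189 from limma.

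Among the lineage factors, Spi1, the gene of PU.1, had 77.3 and 126 FPKM in wt and 264 and 145 FPKM in cko (log2FC 0.98, SE 0.36, adjusted p = 0.275). Irf8, which favours monocytes, had 15.4 and 14.7 FPKM in wt and 18.5 and 21.5 FPKM in cko (0.39, SE 0.16). Gfi1, a repressor needed for neutrophils, had 2.09 and 1.20025 FPKM in wt and 1.61 and 1.01 FPKM in cko, with overlapping groups. Trib1, a pseudokinase that marks C/EBPα for degradation, had 55.8 and 64.4 FPKM in wt and 64.1 and 83.0 FPKM in cko. The related Trib3 and Trib2 had the lowest log2FC values of the list (-0.91 and -0.58), and Trib3 had 2.27 and 2.50012 FPKM in wt and 0.778 and 0.825 FPKM in cko (unadjusted p = 0.00856, short of the fold threshold).

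Granule proteins are made in stages, the primary ones under C/EBPα and the secondary and tertiary ones under C/EBPε. In bulk RNA, fewer cells of a type and less RNA per cell cannot be told apart. Of 9 tested primary granule genes, 0 were called (1 without cko replicate 2), 2 were higher at an unadjusted p under 0.05, where 11.4% of all genes were, and the median log2FC was 0.30. With erythroid and hepatocyte genes removed, 1 was called and 7 were higher at an unadjusted p under 0.05, with a median of 0.51. That setting moved all genes upward, to a median of 0.27. Of its 10780 genes, 351 were called higher, beside 203 in the main fit. An unadjusted p under 0.05 in either direction was held by 2555 genes, beside 1768 in the main fit. Prtn3 (proteinase 3) had 267 and 250 FPKM in wt and 538 and 450 FPKM in cko (log2FC 0.93, unadjusted p = 0.00114), the highest of the list with Cst7 (0.54). Cd63 and Serpinb1a were lowest, at -0.21 and 0.04.

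Of 22 tested secondary and tertiary granule genes, 2 were called, both lower, where 0.408% of all genes were called lower. The median log2FC was -0.10, and lay between -0.28 and -0.07 with 1 library left out. With erythroid and hepatocyte genes removed it was 0.11, beside 0.27 for all genes, and 1 was called. The calls came to 0 with quantile normalization or with no filter on low values. Lyz2, the gene in which Cre sits, fell from 31306 and 32147 FPKM in wt to 10422 and 8127 FPKM in cko, a log2FC of -1.79 (SE 0.18, limma adjusted p = 0.183). The part of the Cre insertion in this value was not tested. Camp, the cathelicidin gene and a target of C/EBPε, fell from 19301 and 17673 FPKM in wt to 9260 and 7948 FPKM in cko, by 1.11 on the log2 scale. Arg2 and Chil3 had the highest log2FC values (0.63 and 0.56), and neither was called. Ltf (lactoferrin) had a log2FC of -0.40 and Ngp of -0.11, neither past the threshold. The neutrophil marker list, which shares genes with these granule lists, held 2 called genes, both lower, of 12 tested, beside the 0.408% of all genes. The calls came to 1 without cko replicate 1 and to 0 without wt replicate 1, without cko replicate 2, with quantile normalization, with no filter and with erythroid and hepatocyte genes removed. Its median log2FC was -0.46, or -0.12 with quantile normalization, and its part in the granule values was not tested.

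**Figure D4:**
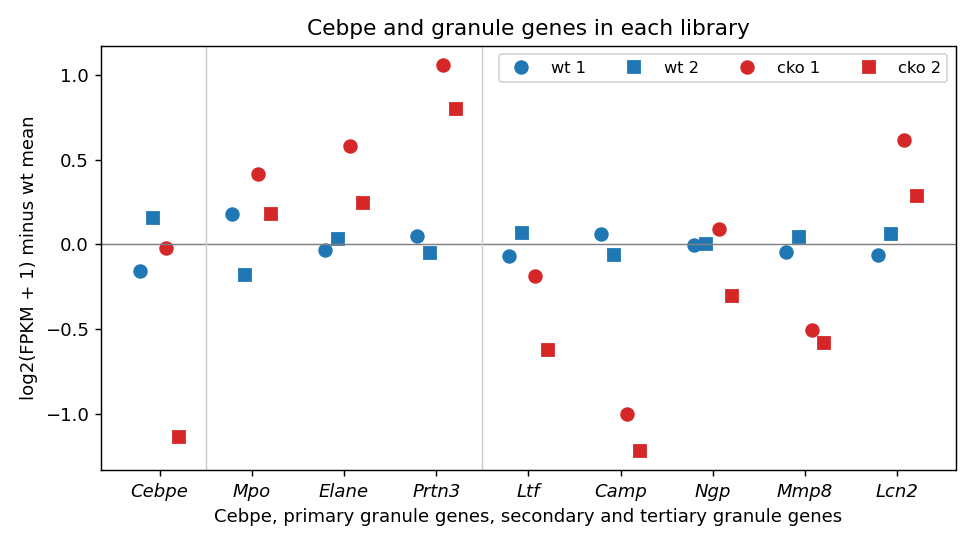
Granule genes beside Cebpe in each library, as log2(FPKM + 1) minus the mean of the wt libraries, with 1 point per library, for genes picked after their values were seen. Cebpe is low in cko replicate 2 alone, whereas Camp is low in both cko libraries and Prtn3 is high in both.

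Inflammatory genes with known C/EBPβ or C/EBPδ sites held the most calls of the lists described, a list drawn up with earlier results of these data known. Of 31 tested, 8 were called, all higher, where 1.88% of all genes were, and the median log2FC was 1.40. At an unadjusted p under 0.05, 17 were higher and 1 lower, where 11.4% and 4.95% of all genes were. Cxcl2, a chemokine gene, rose from 38.0 and 27.3 FPKM in wt to 110 and 449 FPKM in cko (log2FC 2.75, SE 0.63, limma adjusted p = 0.212). Saa3 (2.39), Ccl3 (2.22), Sod2 (1.99), Ccl2 (1.98), Il4ra (1.65), Tnf (1.18) and Mcl1 (1.10) were the others called. Most of these genes also carry sites for other factors. G0s2 and Slpi were lowest, at -0.86 and -0.35.

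The inflammatory calls depended on single libraries. With wt replicate 2 left out 0 of 31 were called (median 1.09), with wt replicate 1 left out 1, with cko replicate 2 left out 5 (median 0.64) and with cko replicate 1 left out 19 (median 2.04). In Cxcl2, cko replicate 2 had 449 FPKM against 110 in cko replicate 1, and it was also the library with the lowest Cebpe and the highest Cebpb. Summed levels of 13 monocyte markers were 690 and 624 FPKM in wt and 668 and 950 FPKM in cko, the highest again in cko replicate 2. Of these markers 0 were called and 3 were higher at an unadjusted p under 0.05, where 11.4% of all genes were. The median log2FC of these markers was 0.52, and became 0.93 without cko replicate 1 and 0.09 without cko replicate 2. It was 0.65 without wt replicate 1 and 0.35 without wt replicate 2. The median of all genes stayed between 0.07 and 0.11 in these fits.

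**Figure D5:**
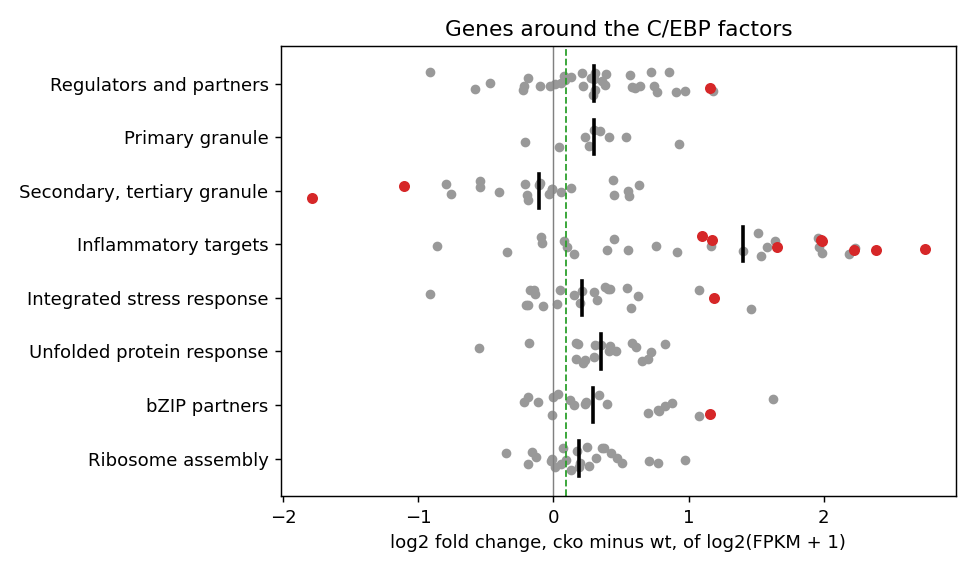
Log2FC of each tested gene in the lists around the C/EBP factors, with called genes in red, a black bar at the median of each list and a green line at the median of all genes. Inflammatory genes have a median of 1.40, secondary and tertiary granule genes of -0.10, and all genes of 0.09.

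The integrated stress response list, which holds targets of ATF4 and CHOP, had 1 call, higher, among 23 tested genes, where 1.88% of all genes were called higher, and a median log2FC of 0.21. Nupr1, a stress-induced chromatin protein gene, rose from 2.35 and 1.80 FPKM in wt to 4.33 and 8.12 FPKM in cko (log2FC 1.19, limma adjusted p = 0.214), and the call was lost when cko replicate 2 or either wt replicate was left out. Slc7a11 had a higher log2FC (1.47) that rested on cko replicate 2, at 8.89 FPKM against at most 0.947 FPKM in the others. Atf4 had 156 and 153 FPKM in wt and 158 and 187 FPKM in cko (log2FC 0.15, SE 0.15). Trib3, an ATF4 and CHOP target, and Mthfd2 were lowest, at -0.91 and -0.20.

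Markers of other cell types differed between the groups beside these values, where 1.88% of all genes were called higher and 0.408% lower. Of 16 tested erythroid markers 3 were called, all lower, or 1 of 18 with no filter on low values. The calls came to 1 without the mean-variance trend, to 2 with the replicate block and to 4 with median-of-ratios scaling or quantile normalization. The summed levels of the erythroid markers were 3894 and 2458 FPKM in wt and 1519 and 1603 FPKM in cko. Their median log2FC was -0.63, and lay between -0.92 and -0.39 with 1 library left out. Of 13 tested hepatocyte markers 1 was called, lower, with sums of 98.9 and 166 FPKM in wt and 72.7 and 92.2 FPKM in cko. Their median log2FC was -0.25, and lay between -0.61 and -0.18 with 1 library left out. Eosinophil, basophil and mast cell markers, of which eosinophils also express Cebpe, summed to 353 and 173 FPKM in wt and to 143 and 165 FPKM in cko, with 0 of 12 tested genes called, or 2 without wt replicate 2. Lymphocyte markers summed to 123 and 137 FPKM in wt and 92.5 and 95.2 FPKM in cko, with 0 of 9 tested called. Their median log2FC was -0.52, and 5 were lower and 0 higher at an unadjusted p under 0.05. Over all genes 4.95% were lower and 11.4% higher at that p. Erythroid markers held 8 lower and 0 higher, hepatocyte markers 2 and 0, and eosinophil, basophil and mast cell markers 3 and 0. Macrophage markers summed to 427 and 303 FPKM in wt and 297 and 481 FPKM in cko, with 0 of 12 tested called. Their median log2FC was -0.03, with 1 lower and 1 higher at that p. Of the endothelial and stromal markers 1 was called higher (Stab2) and 1 lower (Dcn), and 2 of 8 megakaryocyte markers were high enough to test, with 0 called. No marker of these lists was at 0 in all 4 libraries. Their part in the family's values was not tested.

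The tested genes whose pattern over the 4 libraries lay nearest to that of each factor were named by the distance of centred log2(FPKM + 1) values, among genes of at least 5 FPKM. Cebpe had few near neighbours, with 4 genes within a distance of 0.2, and Rnf113a1 (0.08), Agtrap (0.15) and Pgp (0.18) were nearest. For Cebpa they were Tmem97 (0.09), the processed pseudogene Gm19427 (0.12) and Gstp1 (0.12). Eif2ak2, Rilpl2 and Slc30a6 were nearest to Cebpb (0.03 to 0.05) and 6030468B19Rik, Tmem167 and Spdl1 to Cebpd (0.02 to 0.05). Within 0.2, Cebpa had 22 genes, Cebpb 135 and Cebpd 182, so that these names mark small variations over 4 libraries.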

How the data were processed

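The 4 RNA-seq libraries were grouped by their labels. FPKM per gene is the unit the authors deposited, with a separate file for each library. Bowtie2 2.2.3, TopHat2 2.0.12, HTSeq 0.6.0 and mm9 stand in the submitters' processing notes, but 92.61% of positions matched GENCODE M21 (GRCm38), from which exons and GC content were taken. Whether strand was used in counting was not given in the sources used here. Among single-exon genes, 99.94% to 99.97% of the values checked per library came within 0.02 read of a whole multiple of what 1 read is worth. Reads were recovered for 94.43% of genes, at a tolerance of 0.05 read with the annotated length and of 0.02 read where the length was searched. Clopper-Pearson intervals describe counting error and no other.

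limma 3.58.1 (R 4.3.3) was fitted with a mean-variance trend to log2(FPKM + 1) of 10779 genes whose mean reached 1 FPKM, with group as the single term, and Benjamini-Hochberg adjustment ran over all of these. The script was tested on simulated data. For 1 gene, an exact two-sided permutation test of 2 against 2 libraries reaches 0.333 at best. The members and gene lists were chosen with earlier results of these data known. Named were the members, the 2 highest, the 2 lowest and all called genes of each C/EBP list, 10 regulators and neighbours, Pdcd1, Lyz2, and the 3 nearest patterns of 4 members. Alternatives changed the pseudocount, the filter, the scaling, the trend, the replicate block, the tool (voom on recovered reads) or the libraries used, or removed erythroid and hepatocyte genes. The GC trend removal and the crossed block were chosen after seeing the data. Cop1, Azu1, Ptx3, Ero1a, Ahsp and Cd8a had no matching symbol. 1 gene that the rule names is not reported here. Figures used matplotlib 3.10.9 in Python 3.11.15.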

Additional observations from a re-analysis of the deposited data

How the results depend on the processing

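The number of family genes called stayed at 0 under every alternative except the omission of cko replicate 1, and ranged from 0 to 1 with each library left out, the 1 being Cebpe. The difference between emergency and steady-state factors ranged from 0.15 to 0.69 with 1 library left out and from 0.41 to 0.67 under the other settings. The log2 fold change of Cebpg turned negative with median-of-ratios scaling (-0.070), quantile normalization (-0.13), the GC trend removed (-0.061) and without wt replicate 2 (-0.02) or cko replicate 2 (-0.15), and ranged up to 0.17 without other libraries. That of Ddit3 turned positive with erythroid and hepatocyte genes removed (0.17) and without wt replicate 1 (0.24), and was -0.25 without wt replicate 2. Cebpb moved from 0.37 to 0.73 at a pseudocount of 0.1, 0.81 at 0.01 and 0.85 by voom. The cause was not tested. Over all genes, 203 were called higher and 44 lower, against 101 and 25 with a minimum mean of 5 FPKM, 146 and 27 with no filter, 142 and 71 with median-of-ratios scaling, 150 and 79 with quantile normalization, 149 and 72 with the GC trend removed, and 351 and 18 with erythroid and hepatocyte genes removed. They were 393 and 69 without cko replicate 1, 108 and 23 without cko replicate 2, 112 and 35 without wt replicate 1, and 198 and 70 without wt replicate 2. The inflammatory list held 5 calls with median-of-ratios scaling and 3 with no filter. The call of Nupr1 was lost with either scaling, with the replicate block, with no filter, without the mean-variance trend and with the GC trend removed. With a minimum mean of 5 FPKM its list held 0 calls. The replicate numbers are only labels, with a correlation of -0.16 between the deviations of same-numbered libraries. With the replicate block 0 of the 5 family genes were called, and Cebpe stayed at -0.58 (unadjusted p = 0.186). With the crossed replicate block, 0 family genes were called and 1, Cebpe, was lower at an unadjusted p under 0.05, where the fit without a block had 0, with 298 genes higher and 65 lower over all genes. Cebpa and Cebpb rested on 16 to 54 reads per library, which limits both.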

Other observations

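Unfolded protein response genes, whose products fold and export proteins from the endoplasmic reticulum, had a median log2 fold change of 0.35, with 17 of 19 tested genes above 0, as were 6510 of the 10779 genes tested in all. None was called. At an unadjusted p under 0.05, 7 were higher and 1 lower, where 11.4% and 4.95% of all genes were. The 7 became 4 without cko replicate 2. Xbp1, a zipper factor gene of this response, had 68.3 and 67.5 FPKM in wt and 105 and 140 FPKM in cko (log2 fold change 0.83, standard error 0.18, adjusted p = 0.210 from limma), and Calr, the gene of calreticulin, was next at 0.72. Dnajb9 and Sec61b were lowest, at -0.55 and -0.18.

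Of 20 tested zipper genes whose products can pair with C/EBP factors, 1 was called, Nfil3, where 1.88% of all genes were called higher, and 6 were higher at an unadjusted p under 0.05, against 11.4% of all genes. Creb1 and Fosb were lowest, at -0.21 and -0.19. Jun had 72.2 and 71.4 FPKM in wt and 118 and 149 FPKM in cko, with a log2 fold change of 0.88 that missed the fold threshold. Without wt replicate 1, 0 of the 20 were called, and without cko replicate 1, 6.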
